A study of Homo sapiens with 2 samples.

Results

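Classical cadherins are the transmembrane proteins of adherens junctions, and catenins are the proteins that bind their cytoplasmic tails. The chromatin of 10 genes of this system was described here in CAMA-1, a human luminal breast adenocarcinoma cell line: the cadherins CDH1, CDH2, CDH3, CDH5 and CDH11, the catenins CTNNA1, CTNNB1, CTNND1 and JUP, and the epithelial adhesion molecule EPCAM. The genes were chosen by name from 20033 protein-coding genes, and a peak was assigned to a gene when it overlapped the gene body or 20 kb on either side of it. Together the 10 genes held 271 of the 215195 regions that were open in both replicates.

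The assay was ATAC-seq, in which the transposase Tn5 inserts sequencing adapters into accessible DNA. It was run on 50000 CAMA-1 cells, grown in DMEM, in each of 2 biological replicates, and peaks were called separately in each. The samples used here were of 1 condition, so the data allow levels and their spread to be described but no comparison of conditions. The peak lists give no read totals, so the depth of each library is unknown from them.

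In epithelia, E-cadherin (CDH1) joins neighbouring cells through its extracellular domain and is linked to actin by beta-catenin (CTNNB1) and alpha-catenin (CTNNA1), while p120-catenin (CTNND1) binds nearer the membrane and holds the cadherin at the surface. Plakoglobin (JUP) is a close relative of beta-catenin that also serves in desmosomes. P-cadherin (CDH3) is typical of basal epithelium, N-cadherin (CDH2) of neural and mesenchymal cells, VE-cadherin (CDH5) of endothelium and cadherin 11 (CDH11) of mesenchyme and bone. An accessible promoter is usually needed for transcription but does not show that a gene is transcribed.

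Replicate 1 held 245736 peaks and replicate 2 held 259745. Each peak carries a fold enrichment, which is its height in stacked reads plus 1, divided by the background plus 1. The steps of the values gave 1 background for each whole library, 3.35 stacked reads in replicate 1 and 3.52 in replicate 2, so nothing local was divided out and a peak with a fold enrichment of 100 is far above the median peak, which stood at 8.28 and 7.96. A region here is the union of overlapping peaks from the replicates. A fold enrichment does not separate the share of cells in which a site is open from how open it is in each cell, and it moves with DNA copy number, which was not analysed here.

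All 7 markers of luminal epithelium that were checked had a peak over the canonical TSS (the transcription start site of the transcript Ensembl takes as representative) in both replicates, where 65.0% of all protein-coding genes did. Their strongest TSS peaks ranged from 31.3 and 32.5 at ESR1, the estrogen receptor, to 226 and 232 at ELF3, an epithelial transcription factor. ESR1 and GATA3 (48.3 and 50.0) lay below the medians of 51.8 and 53.3 over all genes with a TSS peak. Of 4 endothelial markers 1 had such a peak, of 4 fibroblast markers none, and of 4 blood markers 1. PECAM1 and TEK of endothelium and PTPRC and CD3E of blood had no peak within 1 kb of any TSS in either replicate. All 4 fibroblast markers nonetheless had a peak within 1 kb of some annotated TSS, so a peak near any start is a weaker criterion than one over the canonical start.

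Every one of the 10 genes had a peak within 1 kb of at least one of its annotated TSSs in both replicates, where 79.3% of all protein-coding genes did. The genes carried 185 annotated TSS positions between them, which gives the count much room to be met. Over the base of the canonical TSS itself, 7 of the 10 genes had a peak in both replicates, beside 65.0% of all protein-coding genes. The 3 without one were CDH2, CDH5 and CDH11, the cadherins of neural, endothelial and mesenchymal cells. A share of 7 of 10 is near that over all genes, and this criterion was chosen after seeing the data. Within 100 bp of any TSS all 10 genes had a peak in both replicates, beside 73.2% of all protein-coding genes. The median of the strongest TSS peak over the 10 genes was 71.0 in replicate 1 and 71.2 in replicate 2, against 51.8 and 53.3 over all genes that had such peaks. This value takes the strongest of all starts of a gene, so it too depends on how starts are counted. The median percentile of the 10 genes was 67.2. It was 53.0 with peaks within 100 bp of a TSS and 56.6 for the 7 genes with a peak over the canonical TSS, nearer the middle of all genes.

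**Figure D1:**
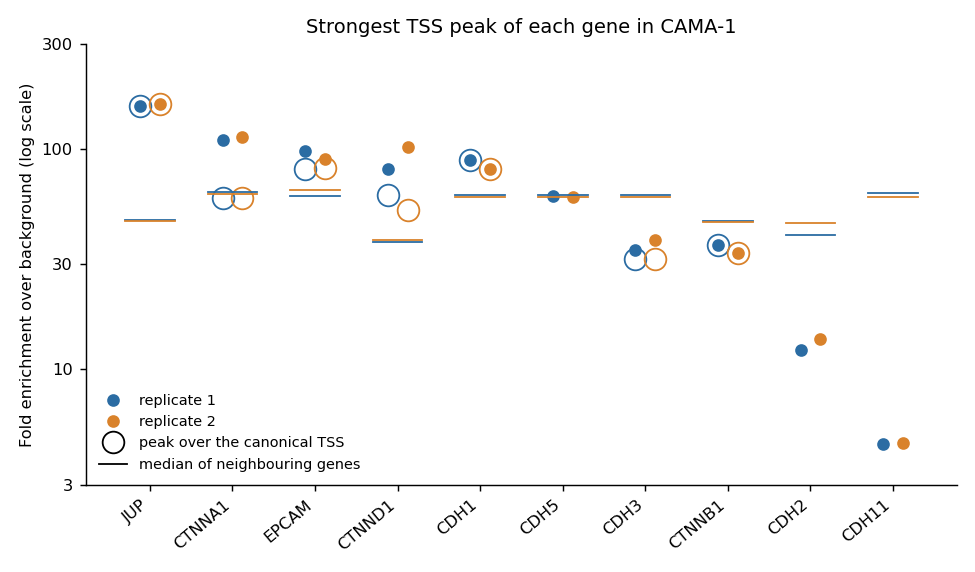
Fold enrichment of the strongest peak within 1 kb of any TSS of each gene (filled points, log scale), of the peak over the canonical TSS where there was one (open circles), and the median of other genes within 5 Mb (lines), in replicate 1 (blue) and replicate 2 (orange). The lines take the strongest TSS peak of each other gene that had one in both replicates. JUP lies highest at 157 and 161 and CDH11 lowest at 4.6 and 4.64, and no open circle stands at CDH2, CDH5 or CDH11.

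Among the catenins, JUP (plakoglobin) had the strongest TSS peak of the whole set. It reached a fold enrichment of 157 in replicate 1 and 161 in replicate 2 (159 ± 2.71, mean ± SD, n = 2), and 97.0% of genes with a TSS peak in each replicate lay lower. The heights were 682 stacked reads (95% exact Poisson interval 632 to 735) and 727 (675 to 782). These intervals cover counting error at most, and they are too narrow, since reads are not independent molecules. The region covered the canonical start at chr17:41783916-41787432 and was 3517 bp wide. A second strong TSS region, at chr17:41771328-41774842 in intron 1 and over the start of the transcript JUP-204, stood at 139 and 137. Other protein-coding genes within 5 Mb that had a TSS peak in both replicates, each taken at its strongest, had a median of 47.6 and 47.1. Both JUP regions were above this median in both replicates. The medians of neighbouring genes given below are of the same kind and leave out genes without a TSS peak.

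CTNNA1 (alpha-catenin, the link to actin) spans chr5:138610967-138935034 and has 40 annotated TSS positions. Its strongest TSS region was not at the canonical start but at the most upstream starts, those of CTNNA1-206 and CTNNA1-234, at chr5:138608849-138611268, with 110 in replicate 1 and 113 in replicate 2 (111 ± 1.81, n = 2). The midpoint of this region lay at -143 kb from the canonical start, which had a peak of 59.8 and 60.1. The upstream start lay above the canonical one in both replicates, by more than the replicates differed. The canonical start lay near the neighbouring genes' median of 64.2 and 62.8, which takes the strongest start of each neighbour and not its canonical one. A cluster of starts in the later part of the gene had a weaker region in intron 7, at chr5:138873235-138874546, with 15.4 and 18.1. A start of another gene, LRRTM2, also lay within 1 kb of this region.

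The canonical CTNNA1 start was the most GC-rich of the canonical promoters of the 4 genes for which RefSeq (GRCh38.p14) gave a sequence. In the window from 250 bases before to 50 after this start, GC made up 77.7%, against a median of 58.7% over 35116 promoters, and the GC box GGGCGG was found 9 times on either strand, with overlapping matches counted. At least 1 GC box was present in 45.0% of all promoters. The stretch before the first annotated untranslated base is shown because it holds these matches, in capitals:
CTNNA1, chr5:138753175-138753417, plus strand: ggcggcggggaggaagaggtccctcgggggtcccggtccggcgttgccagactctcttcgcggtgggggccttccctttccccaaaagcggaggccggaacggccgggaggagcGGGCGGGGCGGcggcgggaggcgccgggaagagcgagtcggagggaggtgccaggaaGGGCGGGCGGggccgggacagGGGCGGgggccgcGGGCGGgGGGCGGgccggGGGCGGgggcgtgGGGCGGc

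CTNNB1 (beta-catenin) had a single TSS region, at chr3:41198804-41199885 over the canonical start, which served 29 of its 48 annotated TSS positions. Its fold enrichment was 36.8 and 33.8 (35.3 ± 2.11, n = 2), higher than in 32.3% of genes with a TSS peak and below the neighbouring genes' median of 47.4 and 46.7. The promoter was GC-rich all the same, at 74.0%, with 3 GC boxes, of which the 1 that lies wholly before the annotated untranslated bases is in capitals:
CTNNB1, chr3:41199255-41199388, plus strand: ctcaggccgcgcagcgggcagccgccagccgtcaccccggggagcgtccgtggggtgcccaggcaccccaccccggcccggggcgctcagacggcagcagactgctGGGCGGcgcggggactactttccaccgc

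CTNND1 (p120-catenin) had peaks of 62.1 and 53.1 over its canonical start. A region in intron 1, over the start of an alternative coding transcript at chr11:57781214-57782001, stood at 81.0 in replicate 1 and 102 in replicate 2 (91.5 ± 14.8, n = 2). This was the largest spread among the strongest TSS peaks of the 10 genes, and the heights of 351 and 460 stacked reads had intervals that did not overlap. Both were above the neighbouring genes' median of 38.0 and 38.7. Regions in intron 6, within 1 kb of starts of noncoding transcripts, had 56.1 and 55.7 and, in the stronger one, 72.7 and 74.7. The upstream flank also took in the promoters of SELENOH (78.5 and 80.5) and BTBD18 (41.4 and 40.7), which are regions of other genes.

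EPCAM, which mediates adhesion between epithelial cells without being a cadherin, had a peak of 81.2 and 82.3 over its canonical start at chr2:47368834-47370186. A start farther upstream (at -24.1 kb), shared in 1 region with the divergent noncoding gene EPCAM-DT, reached 98.2 and 90.0 (94.1 ± 5.83, n = 2). The neighbouring genes' median was 61.4 and 64.9. Both EPCAM regions lay above it in both replicates.

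Of the epithelial cadherins, CDH1 (E-cadherin) had a TSS peak of 89.0 in replicate 1 and 81.6 in replicate 2 (85.3 ± 5.27, n = 2), over its canonical start and above the neighbouring genes' median of 61.9 and 60.4. It was a wide peak of 2192 bp in replicate 1, while the peak over the start was 758 bp wide in replicate 2, where a second peak fell in the same region. CDH3 (P-cadherin), which ends 9823 bp before CDH1 begins on chromosome 16, was weaker. Its canonical start had 31.8 in both replicates and its strongest TSS peak, 353 bp from a start in intron 15, had 34.7 and 38.5 (36.6 ± 2.64, n = 2). Both lay under the median of its neighbours, 61.9 and 60.6, which takes the strongest start of each neighbour and not its canonical one. These adjacent genes thus differed in promoter strength, with every CDH1 value above every CDH3 value.

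The cadherins CDH2, CDH5 and CDH11 had no peak over the canonical start. CDH2 (N-cadherin) had a peak that began 122 bp upstream of it in replicate 1 and 120 bp in replicate 2, at chr18:28177250-28178166 and over alternative starts. The fold enrichment was 12.2 and 13.7 (13.0 ± 1.07, n = 2), below 40.7 and 46.4 for the neighbouring genes, and 11.0% of genes with a TSS peak lay lower. The CDH2 promoter had a GC content of 67.0%, above the median promoter. It held 1 GC box and 1 CCAAT box (CCAAT on either strand). A CCAAT box was present in 34.6% of all promoters, and the canonical JUP promoter also held 1. The sequence is shown because it spans the gap between the canonical start and the nearest peak and the near edge of that peak, with these matches in capitals:
CDH2, chr18:28177131-28177380, minus strand: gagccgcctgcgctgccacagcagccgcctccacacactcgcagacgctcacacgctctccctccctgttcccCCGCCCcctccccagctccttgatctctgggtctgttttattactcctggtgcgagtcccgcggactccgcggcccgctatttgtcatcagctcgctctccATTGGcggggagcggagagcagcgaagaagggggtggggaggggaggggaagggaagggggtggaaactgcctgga

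CDH5 (VE-cadherin) is the one of these 3 genes with a strong peak close by. The peak ended 603 bp before the canonical start in replicate 1 and 734 bp before it in replicate 2, at chr16:66364222-66366088, and its fold enrichment was 61.0 and 60.8 (60.9 ± 0.116, n = 2). That was level with the neighbouring genes' median of 61.9 and 60.6. A second region, over the start of CDH5-204 in intron 1, had 34.1 and 36.0. The region by the canonical start counts as a TSS peak under a distance of 1 kb and not under a requirement to cover the start.

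CDH11 had the weakest TSS peak of the set. It lay 831 and 859 bp upstream of the canonical start, with a fold enrichment of 4.6 in replicate 1 and 4.64 in replicate 2 (4.62 ± 0.0296, n = 2), heights of 19 and 20 stacked reads, and a −log10 q value of 7.6 and 8.01. Among genes with a TSS peak in each replicate 1.06% were lower. Neighbouring genes had a median of 63.3 and 60.8.

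The order of the strongest TSS peaks by mean was JUP, CTNNA1, EPCAM, CTNND1, CDH1, CDH5, CDH3, CTNNB1, CDH2 and CDH11. Neighbours in this order were said to differ where both replicates of one lay above both of the other and the Poisson intervals of their heights did not overlap. Since these intervals are too narrow, the rule describes the values and is not a test. By that rule JUP differed from CTNNA1, CDH1 from CDH5, CDH5 from CDH3, CTNNB1 from CDH2 and CDH2 from CDH11. CTNNA1 could not be separated from EPCAM, EPCAM from CTNND1, CTNND1 from CDH1 or CDH3 from CTNNB1. The catenins were spread across the order, from plakoglobin at its head to beta-catenin in its lower part.

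The number of open regions around the genes varied widely. JUP had 35 regions in a window of 72.3 kb, or 48.4 regions per 100 kb, and 99.2% of protein-coding genes had fewer per 100 kb. CDH1 had 43 regions (31.1 per 100 kb), CDH3 had 35 (26.7) and CTNNA1 had 92 (25.3). These 4 genes were above the upper quartile of all protein-coding genes, 20.8 per 100 kb. CTNND1 (18.8), CDH5 (17.9), EPCAM (14.6), CTNNB1 (11.4) and CDH11 (6.75) lay within the middle of the distribution. CDH2, with 5 regions in 285 kb (1.75 per 100 kb), was below the lower quartile of 5.72. The median over the 10 genes was 18.4 and over all genes 11.6.

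**Figure D2:**
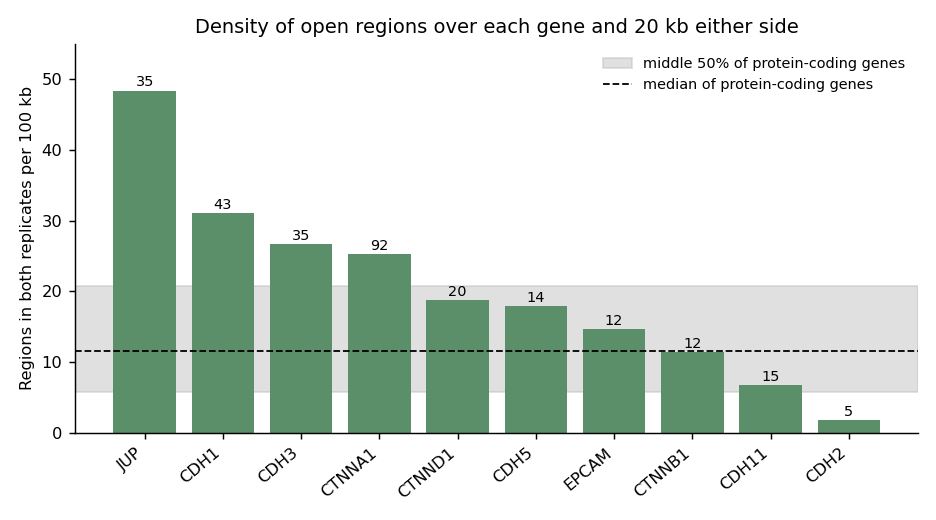
Regions called in both replicates per 100 kb of gene body plus 20 kb either side (bars, with the number of regions above each), with the median (dashed line, 11.6) and the quartiles (grey band, 5.72 to 20.8) of all protein-coding genes. JUP stands at 48.4 and CDH2 at 1.75. CDH1 and CDH3 share 12 regions, counted for both.

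Covered length gave the same ends. Open regions took up 55.2% of the JUP window, 29.4% of the CDH1 window and 20.4% of the CDH3 window, but 0.694% of the CDH2 window, and the median over all protein-coding genes was 6.07%. The 31 JUP regions over 1 kb from any TSS had a median fold enrichment of 6.9 in replicate 1 and 7.52 in replicate 2. Over all such regions of the genome it was 8.97 and 9.29, so many JUP regions were weak. The widest region of the set, 4022 bp, lay in CDH1 and was wider than 99.8% of all regions. The windows of CDH1 and CDH3 overlap by 30177 bp and have 12 regions in common, so their values are not independent.

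**Figure D3:**
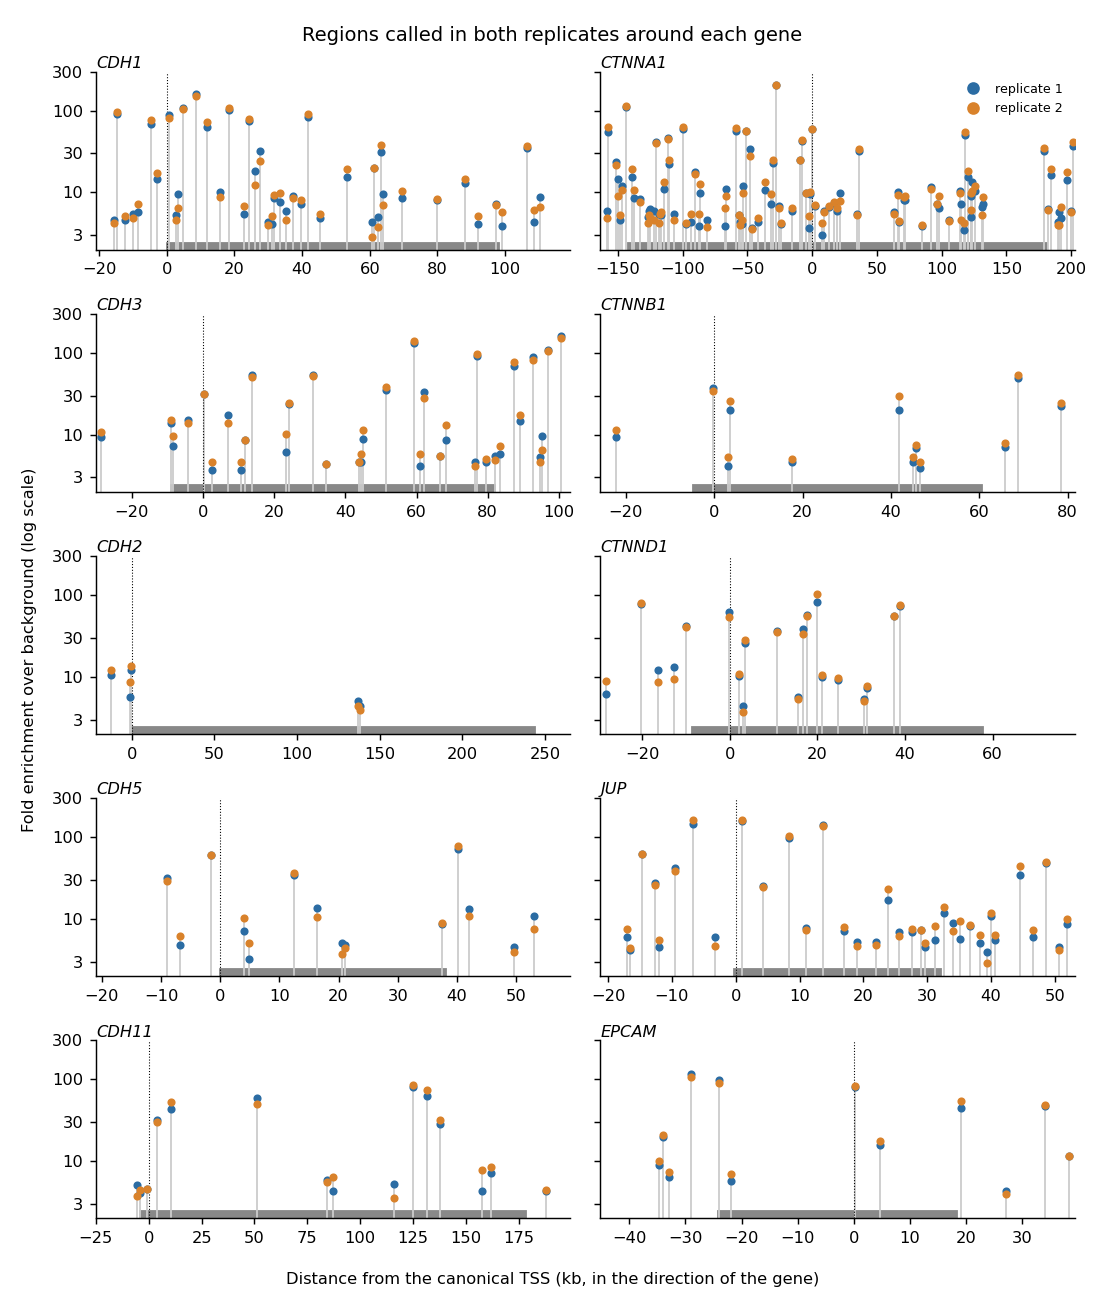
Fold enrichment (log scale) of each region called in both replicates around each of the 10 genes, against the distance of its midpoint from the canonical TSS in kb along the gene (dotted line at 0), in replicate 1 (blue) and replicate 2 (orange), with the gene body as a grey bar. CDH1 and JUP are filled with regions, CDH2 is nearly empty, and the strong regions of CDH11 lie inside the gene away from the start.

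Away from TSSs, at distances over 1 kb from any annotated start of any gene, the 10 genes held 209 of 172293 such regions. Of the 209, 33 (15.8%) belonged to the top 10% of all distal regions by strength, those with a mean fold enrichment of 37.3 or more, where the share over all distal regions is 10.0% by construction. The median went the other way. It was 7.13 in replicate 1 and 7.74 in replicate 2 against 8.97 and 9.29 over all distal regions, so the 10 genes held many weak distal regions as well as strong ones. In the top 10% were 9 of 75 distal regions of CTNNA1, 6 of 34 of CDH1, 6 of 31 of JUP, 6 of 28 of CDH3, 4 of 12 of CDH11, 2 of 5 of EPCAM, 1 of 11 of CDH5, 1 of 10 each of CTNNB1 and CTNND1, and none of 3 of CDH2. Regions shared by CDH1 and CDH3 were counted for both, among them strong ones with means of 93.9, 72.8 and 155.

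The strongest region of all 271 was distal. It lay at chr5:138724279-138726184, within CTNNA1 between the upstream and the canonical start (at -28.2 kb from the latter), and stood at 204 and 203 (204 ± 0.138, n = 2). This is above both CTNNA1 promoter regions in both replicates. In all, 42 of the 92 CTNNA1 regions were distal regions that lay between the first start and the canonical one. JUP had its strongest distal region upstream of the canonical start (at -6.75 kb), at chr17:41792508-41794404, with 146 and 161. That is close to the level of the JUP promoter.

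The middle 200 bases of the strongest distal region of each gene in the RefSeq promoter table are shown to set them beside each other, on the plus strand of GRCh38, with matches to the motifs named later in capitals. The CTNNA1 and CDH2 sequences had no match, JUP had 1 E-box and CTNNB1 had 1 AP-1 site.
CTNNA1, chr5:138725132-138725331, fold enrichment 204 and 203: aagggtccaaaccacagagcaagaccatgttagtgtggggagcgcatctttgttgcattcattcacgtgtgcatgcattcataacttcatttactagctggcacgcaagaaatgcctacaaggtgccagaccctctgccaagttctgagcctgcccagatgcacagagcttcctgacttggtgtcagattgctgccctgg
JUP, chr17:41793357-41793556, fold enrichment 146 and 161: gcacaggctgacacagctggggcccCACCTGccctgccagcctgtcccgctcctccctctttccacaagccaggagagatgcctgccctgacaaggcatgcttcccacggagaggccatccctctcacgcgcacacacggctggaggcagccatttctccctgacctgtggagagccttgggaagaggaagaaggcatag
CTNNB1, chr3:41268178-41268377, fold enrichment 49.7 and 54.0: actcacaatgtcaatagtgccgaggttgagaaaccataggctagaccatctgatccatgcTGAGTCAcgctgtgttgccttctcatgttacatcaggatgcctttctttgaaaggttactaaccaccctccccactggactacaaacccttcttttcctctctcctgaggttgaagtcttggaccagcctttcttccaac
CDH2, chr18:28189503-28189702, fold enrichment 10.6 and 12.2: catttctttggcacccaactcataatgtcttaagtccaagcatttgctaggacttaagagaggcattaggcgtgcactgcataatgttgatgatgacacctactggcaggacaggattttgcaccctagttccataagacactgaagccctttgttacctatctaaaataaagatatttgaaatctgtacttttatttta

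Within CDH1 the open chromatin was concentrated in intron 2, a long intron of 63.3 kb at chr16:68738412-68801669. It held 26 of the 43 regions, which covered 46.3% of its length, and 6 of them had a mean fold enrichment of at least 50. The strongest, at chr16:68743946-68747967, stood at 158 in replicate 1 and 151 in replicate 2. Others stood at 108 and 105 (chr16:68741069-68743290, over the start of the RNA gene RNA5SP429), at 101 and 108 (chr16:68753988-68757411) and at 82.8 and 89.6 (chr16:68777813-68780436). The first 3 of these were above the CDH1 promoter in both replicates.

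Upstream of CDH1, in the part shared with CDH3, a region at chr16:68721848-68722988 reached 90.7 and 97.1 and one at chr16:68731641-68733566 reached 69.3 and 76.3. Outside the shared part, CDH3 had its strongest distal region at chr16:68704172-68704870, past the end of its canonical transcript, with 133 and 140. A CTCF motif was matched in the middle of that region. Both values lay above those of the CDH3 promoter.

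CDH11 combined the weakest promoter with strong regions inside the gene. A region in intron 4, at chr16:64996522-64997318, stood at 81.0 and 85.4, one in intron 6, at chr16:64990018-64990485, at 61.9 and 73.9, and one in intron 1, at chr16:65070817-65071211, at 59.1 and 50.0. All were far above the promoter values of 4.6 and 4.64. In the middle of the intron 4 region a FOX motif was matched, in that of intron 1 an AP-1 motif, and in that of intron 6 none. Over all regions FOX was matched in 5.61% and AP-1 in 10.1%. At CDH5 the strongest distal region lay downstream of the gene, at chr16:66406342-66407270, with 72.2 and 78.9.

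The EPCAM window had its strongest region upstream of all its starts (at -28.9 kb from the canonical one), at chr2:47339714-47341057, with 115 and 108, above both EPCAM start regions in both replicates. CTNND1 had 56.8 and 55.3 at chr11:57779152-57779877 in intron 1, beside that alternative start. CTNNB1 had 49.7 and 54.0 at chr3:41267997-41268558, downstream of the gene, and this too lay above its promoter. CDH2 had no distal region above 10.6 and 12.2, which were the values of the one at chr18:28189472-28189732 upstream of the gene, and its intron 2 held a pair of regions at 4.37 and 3.98 and at 5.06 and 4.42.

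Motifs of factors known in luminal breast or epithelial cells were searched as exact letters on both strands in the middle 200 bases of each of the 271 regions. The E-box CAGGTG, which SNAI and ZEB repressors of CDH1 are known to bind, was found in 63 regions (23.2%, 95% Wilson interval 18.6 to 28.6), beside 22.6% of all regions. AP-1 (TGANTCA) was in 31 (11.4%, 8.18 to 15.8) beside 10.1%. The GATA motif AGATAA was in 27 (9.96%, 6.94 to 14.1) beside 9.36%. The CTCF core motif was in 13 (4.8%, 2.82 to 8.03) beside 4.8%. None of the motifs contains another. Each of these intervals includes the share over all regions, so no difference was detectable with 271 regions.

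The FOX motif TGTTTAC was in 8 regions (2.95%, 1.5 to 5.72) beside 5.61%, and the grainyhead motif ACCGGT in 1 (0.369%, 0.0652 to 2.06) beside 0.922%. No region matched the full palindrome of the estrogen response element, for which the Wilson interval allows a share of up to 1.4%, and 0.0646% of all regions matched it. Regions of one gene are not independent of each other, so the intervals are too narrow. In the promoter table, both E-boxes found belonged to an alternative JUP start, at position 41785976 of chromosome 17, while 20.6% of all promoters had 1 or more. CDH1 had no entry in that table. The region over its canonical start held an E-box in its middle 200 bases, which are centred 0.638 kb past the start. No canonical promoter of the 4 genes held the TATA box TATAAA, which 11.5% of all promoters did.

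The replicates were close over these genes. In replicate 1, 286 of 325 peaks (88.0%) were found again in replicate 2 by an overlap of at least 1 bp, beside 90.2% of all its peaks. In replicate 2, 284 of 329 (86.3%) were found again, beside 84.7% of all. Peaks seen in 1 replicate alone were weak, with a fold enrichment of at most 6.67 in replicate 1 and 6.63 in replicate 2. CTNNA1 held the most of them, 17 and 19.

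Over the 271 regions the log2 ratio of replicate 2 to replicate 1 had a median of 0.06 and an SD of 0.27. The Poisson intervals of the heights did not overlap in 2 regions (0.738%), beside 1.39% of all regions. One was the intron 1 start of CTNND1 described above, and the other lay at chr3:41241225-41241536, past the end of the canonical CTNNB1 transcript, with heights of 87 and 132.

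**Figure D4:**
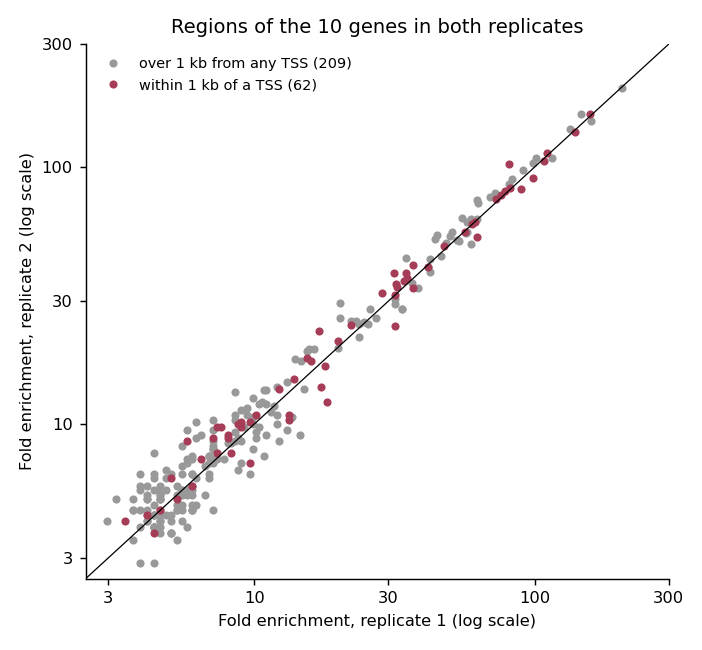
Fold enrichment in replicate 1 against replicate 2 (log scales) for the 271 regions of the 10 genes, 62 within 1 kb of a TSS (red) and 209 farther away (grey), with the line of equal values. Points above a fold enrichment of about 20 lie close to the line, and the spread widens among weak regions.

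Genes related to the 10 by family or junction were counted in the same way. Of 15 other cadherins, 6 had a peak within 1 kb of a TSS in both replicates and 5 a peak over the canonical start, where the shares over all protein-coding genes were 79.3% and 65.0%. The strongest were CDH15 (94.6 and 93.3), a cadherin of muscle, and CDH24 (74.6 and 75.0). The 9 without such a peak were CDH4, CDH6, CDH8, CDH9, CDH10, CDH12, CDH13, CDH19 and CDH20, several of them known from nervous tissue. CDH20 had a TSS peak in 1 replicate.

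All 12 of the other catenins, nectins and partners had a TSS peak in both replicates and 11 had one over the canonical start, again beside 79.3% and 65.0% of all protein-coding genes. NECTIN4, an adhesion molecule of epithelial junctions, reached 215 and 238, above JUP, and CTNNBIP1, an inhibitor of beta-catenin, reached 144 and 140. Of 11 desmosome genes, 8 had a TSS peak and 6 had one over the canonical start, which is near or below those shares. The strongest were the plakophilins PKP4 (139 and 136) and PKP3 (72.7 and 78.9), and the 3 without were DSC3, DSG1 and DSG3, which are desmosomal cadherins of stratified epithelium.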

How the data were processed

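CAMA-1 cells were profiled by ATAC-seq in 2 replicates. Per the labels and the study's methods, the authors trimmed reads with Trim Galore 0.6.5, aligned them to hg38 with Bowtie2 2.3.5.1 and called peaks with MACS2 2.2.6 in each replicate without pooling. Settings of the caller and the handling of duplicates and blacklisted regions are not given in the sources used here. The deposited lists hold, for each peak, its interval, a score (10 times the −log10 q value, cut to a whole number), a fold enrichment that is a ratio to background, and −log10 p and −log10 q values. No read counts or depths are in the lists.

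Heights in stacked reads were recovered from the fold enrichment, which moves in equal steps of 0.23 in replicate 1 and 0.221 in replicate 2, and p-values recomputed from them lay within 0.01 of the deposited −log10 p for 100% of the peaks tried in each replicate. TSSs and gene bodies came from GENCODE release 44 on hg38, and canonical TSSs from its Ensembl canonical tag. Overlapping peaks (at least 1 bp) of the replicates were merged into regions. Percentiles of TSS strength are shares of protein-coding genes with TSS peaks in both replicates, those of density shares of all protein-coding genes, and those of width shares of all regions, that had a lower value. Values of strength are means over both replicates, and distal regions were ranked among all distal regions. Neighbouring genes are other protein-coding genes with a TSS within 5 Mb of the canonical TSS and a TSS peak in both replicates. Each was taken at its strongest TSS peak, and genes without a TSS peak were left out of these medians. With 1 condition and 2 replicates no test was made. SDs are over 2 replicates.

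Promoter sequences came from RefSeq (GRCh38.p14), where 4 of the 10 genes were matched (CDH2, CTNNA1, CTNNB1 and JUP). CDH1, CDH3, CDH5, CDH11, CTNND1 and EPCAM had no entry. Motifs were exact matches. Overlap counting was tested on simulated peaks. Python 3.11.15, numpy 2.4.6, scipy 1.17.1, pysam 0.24.0 and matplotlib 3.10.9 were used. The genes, the related lists and the markers were chosen with earlier results of these data known. The rule for named genes was all 10 members and, in each related list, the 2 with the strongest TSS peaks and those without one, at most the first 8 in alphabetical order. CDH9 is named beyond that rule. Named neighbours are those whose TSS lies under a described region or within 1 kb of it. The alternatives tried were a stricter q value, other TSS distances and choices, other windows, a reciprocal overlap of 50%, other motif windows and leaving out either replicate.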

Additional observations from a re-analysis of the deposited data

How the results depend on the processing

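No paired analysis was possible because the samples used here are of 1 condition. Of 61 alternatives over 15 results, 34 stayed within the spread between replicates, 1.5 times the count or, for motifs, the Wilson interval, and 27 moved. A change of direction was not assessed by this rule. The 10 genes with a TSS peak became 9 at a −log10 q of at least 10 (CDH11 lost), 8 with the most 5-prime TSS alone (CTNNB1 and CTNND1 lost) and 7 with the canonical TSS alone, the last chosen after seeing the data. The share over all protein-coding genes fell as well, from 79.3% to 76.9%, 71.7% and 65.0% under these settings.

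The median percentile of TSS strength, 67.2, became 75.5 at the stricter q, 53.0 within 100 bp, 75.0 within 3 kb, 70.0 with the most 5-prime TSS and 56.6 over the canonical TSS, and ranged from 65.6 to 66.7 without one replicate. The median density of 18.4 regions per 100 kb became 15.1 at the stricter q, 20.5 over gene bodies and 22.5 to 23.0 without one replicate. Without one replicate every peak of the other was counted, not only regions called in both, so a rise was built into that setting. The density over all genes under these settings is not given here. The median percentile of distal regions, 40.7, became 44.6, 38.3 over gene bodies and 34.7 to 41.0 without one replicate. Peaks found again became 90.5% and 90.0% at the stricter q, 76.9% and 76.0% with a reciprocal overlap of 50%, and 85.0% for replicate 2 over gene bodies. Motif shares moved with the window, as did those of all regions. In 100 bp AP-1 was 4.8% beside 5.85% of all regions, CTCF 2.58% beside 3.3% and E-box 13.7% beside 12.5%. GATA was 3.69% beside 4.7% and grainyhead 0% beside 0.515%. In 400 bp AP-1 was 17.0% beside 16.3%, E-box 38.0% beside 37.1%, FOX 6.27% beside 8.86% and GATA 21.4% beside 19.2%. AP-1 and GATA lay above the share of all regions in 200 bp and below it in 100 bp. The wider window holds more bases. Other causes were not tested. The CDH11 start peak rests on 19 and 20 stacked reads, and the peak lists do not give the depth behind it.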
